A study of Ovis aries with 24 samples.

Results

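The change of gene expression in the sheep ductus arteriosus over birth was measured on 8 of the 24 arrays of the study. They were chosen by their labels alone: 4 arrays of ductus from near-term fetal lambs and 4 of ductus from newborn lambs 12 hours after birth. The near-term fetuses are given as 136 days of gestation in the tissue labels and 140 days in the array titles. The other 16 arrays hold preterm fetal ductus and, for each of the 3 ages, the aorta next to the ductus. No treatment, genotype or breed is named for either ductus group, and the labels do not say whether each array is a different animal, so a p-value here measures only the spread between arrays. Newborn lambs differ from near-term fetuses in age as well as in having been born, and a single time after birth was sampled.

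The ductus arteriosus is the muscular vessel through which most blood of the fetal right heart bypasses the lungs. It is held open before birth largely by prostaglandin E2, which acts through its receptor EP4, and by nitric oxide, at the low oxygen tension of fetal blood. After birth its muscle contracts, the inner wall becomes short of oxygen, and over the following hours and days the lumen is sealed by inflammation, new intima and scarring.

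Total RNA of each vessel segment was copied into Cy3-labelled RNA and hybridised to a single-colour sheep oligonucleotide array. A level in this text is the log2 of the processed spot signal minus the array's 75th percentile, so that 0 is the signal that 75 percent of the spots lie under. Levels are compared between arrays for 1 probe at a time and not between probes. Of 15008 probes, 13997 passed the filter, a signal well above background on 4 or more of the 24 arrays, and were tested, and 759 named genes were represented by their brightest tested probe. Most probes carry no gene symbol in the sources used here, so that groups of genes are covered only in part.

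A pair of near-term ductus arrays stood apart from the other 6. Near-term replicates 1 and 3 had 94.2% and 94.4% of their spots above background, against 72.0% and 66.2% on near-term replicates 2 and 4 and 68.7% to 72.0% on the newborn arrays. Their detection limits for spiked-in control RNA were 2.55 and 2.44, against 0.44 to 1.02 on the other 6 arrays. They lay apart on the first principal component of the 8 arrays, which held 77.9% of the variance. On the second, with 8.89%, the newborn arrays ran from 7.89 to 38.9 and overlapped near-term replicate 1 at 14.5, while near-term replicates 2 and 4 lay lowest. Dim probes read higher on these 2 arrays, and results are therefore given with and without them. All arrays of an age shared 1 slide, so age and slide cannot be told apart.

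In the newborn ductus 582 probes were higher and 959 were lower than near term, together 11.0% of the 13997 tested, by limma with a Benjamini-Hochberg adjusted p under 0.05. The higher probes were 4.16% and the lower ones 6.85% of those tested. For 3154 probes, 22.5%, the 4 newborn and 4 near-term arrays did not overlap, so lack of overlap alone was common. The median difference over all tested probes was -0.32 on the log2 scale, and scaling each array to its own median instead brought it to -0.01. The balance between the directions depended on the scaling: 600 probes were higher and 412 lower with median scaling, 742 and 618 after quantile normalisation, and 672 and 4796 after the normexp background correction. Without near-term replicates 1 and 3, 349 probes were higher and 285 lower. All 1541 called probes kept their direction without those 2 arrays, and 552 of them kept their call.

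Among the 759 named genes 53 rose and 40 fell. Of those that rose, 52 were above background on all 8 arrays, against 30 of those that fell. The median named gene differed by -0.58, and the 414 named genes above background on all 8 arrays had a median difference of 0.00. Without near-term replicates 1 and 3, 37 named genes were higher and 13 lower. Of 63 called genes described here, 43 kept their call when any 1 of the 8 arrays was left out. The 20 that did not were ANGPT1, GRIA3, PRKAA2, ADIG, CLEC7A, LMNB1, GSTA1, IL10, LDHA, PFKL, HYAL2, TGFBR2, BMP6, HOXA7, PGR, IFNAR1, C3, RPL32, FCER1A and SC5, whose highest adjusted p was between 0.0705 and 0.167. Of the 63 called genes, 24 lost their call in a fit on the near-term and newborn ductus arrays alone, 14 after quantile normalisation and 12 with median scaling. Over all probes the shares were 4.16% higher and 6.85% lower. Counts of a list's members are to be read beside these and beside the 53 higher and 40 lower of 759 named genes. They rest on the brightest probe of a gene: of 37 called genes described with over 1 tested probe, 18 had another probe that did not pass, and of 22 such genes not called, 6 had another that did. In bulk tissue, fewer cells of a type and less RNA per cell cannot be told apart.

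By count, the inflammation list, one of the longest, held the most rises. Its members, like those of the other lists, were chosen with earlier results of these data known. Its share of rises is thus a description and no independent support. Of 28 measured genes of the list, 11 rose and 0 fell, where 53 of 759 named genes rose and 40 fell. The median difference was 0.83, beside -0.32 for all probes and -0.58 for the named genes. Without near-term replicates 1 and 3, 12 rose and 0 fell, with a median of 1.07. The genes that rose encode cytokines, acute-phase and pattern recognition proteins, and proteins with which vessel walls catch white blood cells.

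IL6, the cytokine interleukin 6 that drives acute-phase responses, had the largest rise of the named genes. Its level on near-term arrays 1 to 4 was -5.58, -6.58, -4.74 and -6.17, and on newborn arrays 1 to 4 it was 0.44, -0.91, -0.55 and 0.61. All newborn arrays thus lay far above the highest near-term array, and IL6 was above background on 1 of 4 near-term arrays and on 4 of 4 newborn ones. The difference was 5.66 ± 0.53 (SE, n = 4 arrays a group; limma adjusted p = 1.08e-06), a 50.7-fold rise whose lower end rests on signals near background. With the normexp background correction the rise of IL6 was 2.24, or 4.71-fold (adjusted p = 0.00835).

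CXCL8, or interleukin 8, the chemokine that draws neutrophils, read -3.43, -4.21, -3.99 and -3.43 near term and 0.76, 0.47, 0.40 and 1.09 in the newborn. It was measured above background on all 8 arrays, and the groups were far apart. The rise was 4.45 ± 0.32, or 21.8-fold (limma adjusted p = 6.21e-08), and a further probe of the gene rose by 4.68. With normexp the rise of CXCL8 was 7.71-fold.

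SAA3, an acute-phase serum amyloid A protein that is made in tissues outside the liver, was bright near term at 1.62, 1.33, 1.84 and 1.76. In the newborn it read 7.90, 5.91, 6.73 and 8.06. The rise of 5.51 ± 0.66 was 45.7-fold (limma adjusted p = 2.21e-05), with newborn replicate 2 the lowest and replicate 4 the highest of the newborn arrays. PTX3, a soluble pattern recognition protein made by vascular and immune cells, rose by 3.40 ± 0.29 (adjusted p = 2.47e-07), and CHI3L1, a chitinase-like glycoprotein of inflamed and remodelling tissue, by 3.28 ± 0.42 (adjusted p = 4.22e-05).

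SELP, or P-selectin, on which leukocytes roll along activated endothelium, read -3.03, -4.13, -3.02 and -4.17 near term and -0.12, -1.97, -0.11 and -0.12 in the newborn. Newborn replicate 2 was the lowest of the newborn arrays and still above every near-term array. The rise was 3.01 ± 0.38 (limma adjusted p = 3.73e-05), and with normexp it was 1.55. ICAM1, the endothelial ligand to which leukocytes adhere firmly, rose by 2.46 ± 0.38 (adjusted p = 0.000313), and CD14, the monocyte coreceptor for bacterial lipopolysaccharide, by 1.503 ± 0.21 (adjusted p = 0.000113).

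NFKBIA, the inhibitor that NF-kappaB induces against itself, rose by 1.58 ± 0.30 (limma adjusted p = 0.00198). IL1B, the precursor of interleukin 1 beta, rose by 1.88 ± 0.47 (adjusted p = 0.0138), with near-term replicate 1 at -2.23 and newborn replicate 2 at -2.40 overlapping. IL10, an anti-inflammatory cytokine, rose by 0.77 ± 0.24 (adjusted p = 0.0407), and its call was lost without near-term replicates 1 and 3 (adjusted p = 0.133). A second IL10 probe differed by 0.27 ± 0.53 (adjusted p = 0.739). With normexp the calls of IL1B (0.86, adjusted p = 0.0804) and IL10 were lost. NFKBIA, IL1B and IL10 were named after their values were seen. IL1A, the sister cytokine of IL1B, differed by 0.16 ± 0.72 (adjusted p = 0.891). IRF1, a transcription factor of interferon signalling, differed by 1.65 ± 0.54 (adjusted p = 0.0559), and by 2.57 without near-term replicates 1 and 3 (adjusted p = 0.0169).

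The newborn arrays were not alike in this group. Newborn replicate 2 had the lowest level for 8 of the 11 inflammation genes that rose, and newborn replicate 4 the highest for 6 of them. Over all 53 named genes that rose, replicate 2 was the lowest for 23 and the highest for 13. The spike-in detection limit of replicate 2 was 0.90, against 0.58 to 0.68 on the other newborn arrays, and the part of this in the gene levels was not tested.

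**Figure D1:**
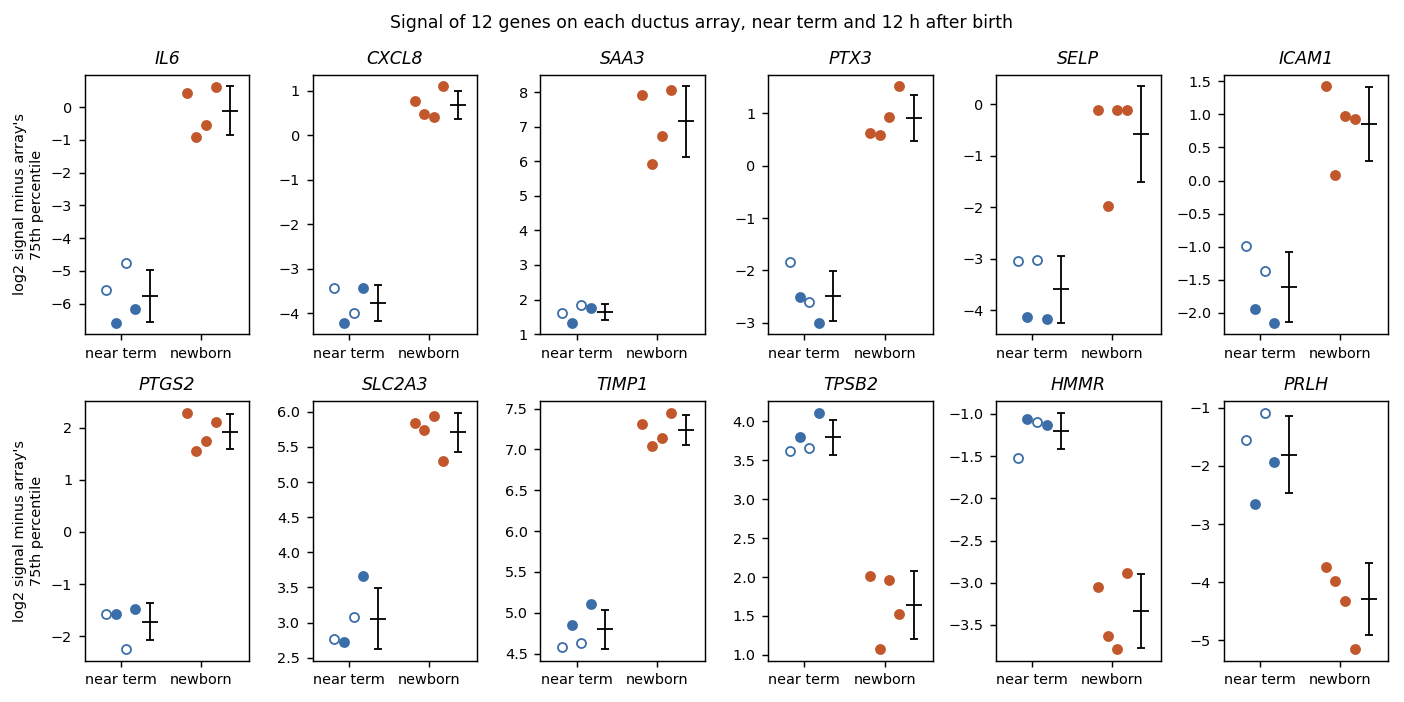
Level of 12 genes on each ductus array, in log2 signal minus the array's 75th percentile, near term (blue) and 12 h after birth (orange), with the mean and SD of 4 arrays in black. Open circles are near-term replicates 1 and 3. The 12 genes were taken from called genes whose arrays did not overlap, so the ages lie apart in every panel by choice. The 4 newborn arrays lie above the 4 near-term arrays for the first 9 genes and below them for TPSB2, HMMR and PRLH.

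Of the immediate early genes, which are switched on within minutes to hours of a stimulus, 3 of 8 measured rose and 0 fell. Their median difference was 1.30. Higher were 4.16% of all probes and 53 of 759 named genes. JUNB, a subunit of the AP-1 transcription factor, read -1.18, -2.49, -0.71 and -0.67 near term and 2.83, 2.11, 2.47 and 2.22 in the newborn. The rise was 3.67 ± 0.41, or 12.7-fold (limma adjusted p = 1.04e-05). ZFP36, an RNA-binding protein that destabilises cytokine messages, rose by 1.92 ± 0.29 (adjusted p = 0.000304), and MYC, a growth-promoting transcription factor, by 1.66 ± 0.36 (adjusted p = 0.00573). The call of MYC was lost without near-term replicates 1 and 3 (adjusted p = 0.0524). FOS, the partner of JUNB in AP-1, differed by 1.75 ± 0.65 (adjusted p = 0.087), with newborn replicate 1 at -1.88 below near-term replicate 1 at -1.23. EGR1, a zinc-finger factor of the same class, differed by 0.95 ± 0.34 (adjusted p = 0.0764), and JUN by -0.70 ± 0.54 (adjusted p = 0.351).

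In the feedback arms of calcium and cAMP signalling, 2 of 5 measured genes rose, where 53 of 759 named genes did. RCAN1, which calcineurin induces and which restrains calcineurin, read 2.66, 2.76, 2.19 and 2.68 near term and 4.08, 4.31, 3.72 and 4.01 in the newborn. The groups lay apart, with a rise of 1.46 ± 0.34 (limma adjusted p = 0.00918). The call was lost without near-term replicates 1 and 3, where RCAN1 differed by 1.31 (adjusted p = 0.1). CREM, a modulator of cAMP-responsive transcription, rose by 0.77 ± 0.14 on its brightest probe (adjusted p = 0.00184). A second CREM probe rose by 0.75, while a pair of dim probes, above background on 0 of 4 newborn arrays, differed by -2.52 and -1.82 without passing the test.

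Genes of the response to low oxygen included 2 of 6 measured that rose, SLC2A3 and LDHA, with a median difference of 1.05. Over all named genes 53 of 759 rose. Without near-term replicates 1 and 3 the count in this list was 1 of 6. Counting a gene on any of its probes, 4 of 6 rose. SLC2A3, the high-affinity glucose transporter GLUT3, read 2.76, 2.73, 3.08 and 3.66 near term and 5.84, 5.73, 5.94 and 5.30 in the newborn. Both groups were bright and tight, and the rise was 2.65 ± 0.30, or 6.27-fold (limma adjusted p = 9.9e-06). LDHA, which turns pyruvate into lactate, rose by 0.98 ± 0.27 (adjusted p = 0.0248), a call lost without the 2 near-term arrays (adjusted p = 0.122). VEGFA, the main hypoxia-induced angiogenic factor, read -2.81, -3.60, -2.78 and -3.10 near term and 0.03, -1.95, -0.80 and -0.83 in the newborn. The arrays of the 2 ages did not overlap for VEGFA, but its difference of 2.19 ± 0.71 missed the threshold (adjusted p = 0.0534). This probe passed in 10 of 13 alternative analyses, among them the fit on the 2 ductus groups alone. It did not pass without near-term replicates 1 and 3 (2.465, adjusted p = 0.151), and passed in 1 of 8 fits with 1 array left out. A second VEGFA probe, above background on all 8 arrays, rose by 2.33 ± 0.53 (adjusted p = 0.00757). HIF1A, the oxygen-regulated transcription factor, differed by 1.13 ± 0.69 (adjusted p = 0.236), and SLC2A1, the glucose transporter GLUT1, by 0.75 ± 0.39 (adjusted p = 0.165). A second SLC2A1 probe rose by 0.96 ± 0.31 (adjusted p = 0.0493).

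Along glycolysis 3 of 8 measured genes rose and 1 fell, and on any of their probes 5 rose and 2 fell. On their brightest probes 53 of 759 named genes rose and 40 fell. PFKL, the liver form of the committing enzyme phosphofructokinase, rose by 1.12 ± 0.33 (limma adjusted p = 0.0333), while PFKM, its muscle form, fell by 1.81 on the log2 scale, ± 0.36 (adjusted p = 0.00298). Without near-term replicates 1 and 3 neither PFKL (1.15, adjusted p = 0.143) nor PFKM (-1.27, adjusted p = 0.0881) passed. GAPDH differed by 0.74 ± 0.26 (adjusted p = 0.0736) and ALDOA, the muscle aldolase, by 0.73 ± 0.27 (adjusted p = 0.0882); the 5 probes of GAPDH disagreed, with differences from -0.99 to 0.95, of which 1 passed as higher and 1 as lower.

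The next 3 lists are short, and their counts are to be read beside the 53 of 759 named genes that rose. SOD2, the mitochondrial superoxide dismutase that inflammatory cytokines also induce, was the 1 gene of 5 measured antioxidant genes that rose. Its level was -0.24, -0.02, -0.04 and 0.14 near term and 3.85, 2.27, 2.77 and 3.95 in the newborn. The near-term arrays lay close together, and the rise was 3.25 ± 0.28, or 9.53-fold (limma adjusted p = 2.73e-07). Of 9 measured genes of apoptosis and survival, 2 rose: MCL1, a short-lived survival protein, by 1.90 ± 0.23 (adjusted p = 2.4e-05), and FAS, a death receptor, by 1.54 ± 0.33 (adjusted p = 0.00539). A second FAS probe differed by 0.99 (adjusted p = 0.112), and with normexp the first differed by 0.23 (adjusted p = 0.651). CRYAB, a small heat shock protein of muscle, rose by 1.39 ± 0.28 (adjusted p = 0.00291) as the 1 of 9 measured chaperone genes that passed, and lost its call without the 2 near-term arrays (adjusted p = 0.0603).

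In the prostanoid pathway 1 of 10 measured genes changed on its brightest probe, where 53 of 759 named genes rose and 40 fell. PTGS2, the inducible cyclooxygenase that makes the prostaglandin precursor, read -1.58, -1.58, -2.25 and -1.48 near term and 2.29, 1.56, 1.74 and 2.11 in the newborn. The levels of the 2 ages were far apart, and the rise was 3.65 ± 0.30, or 12.5-fold (limma adjusted p = 2.13e-07). A second, dim PTGS2 probe, above background on 2 of 4 near-term and 0 of 4 newborn arrays, differed by -2.08 ± 1.13 (adjusted p = 0.183), and the mean of both probes did not pass. PTGS1, the constitutive cyclooxygenase, differed by 0.23 ± 0.20 (adjusted p = 0.42), and SLCO2A1, which carries prostaglandins into cells for breakdown, by 0.39 ± 0.33 (adjusted p = 0.392). PTGER4, the EP4 receptor, was above background on 3 near-term arrays and on 0 of 4 newborn ones, where it had only an upper bound. Its levels were -2.22, -5.14, -2.46 and -6.81 near term and -7.08, -5.95, -6.36 and -6.76 in the newborn, so that the 2 high near-term values were those of replicates 1 and 3. The difference of -2.38 ± 1.15 did not pass (adjusted p = 0.147), and it was -0.56 without those arrays. ALOX5AP, which leukotriene synthesis needs, differed by -0.68 ± 0.27 (adjusted p = 0.104) on its brightest probe, while a second ALOX5AP probe was lower by a difference of -0.77 ± 0.24 (adjusted p = 0.0432).

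None of the 23 measured genes of vasoactive signalling passed the limma test on its brightest probe, with a median difference of -0.51. Without near-term replicates 1 and 3 the count was again 0, with a median of 0.06. Over all named genes 53 of 759 rose and 40 fell, so a list of this size would hold few calls at that share. NOS3, the endothelial nitric oxide synthase, read -0.14, -0.99, -0.28 and -0.12 near term and -0.08, 1.26, 0.87 and 0.19 in the newborn. Its newborn arrays all lay above the near-term ones, by a narrow margin, and the difference was 0.95 ± 0.35 (adjusted p = 0.0806). GUCY1B1, a subunit of the guanylate cyclase on which nitric oxide acts, differed by -0.75 ± 0.27 (adjusted p = 0.0778). A second GUCY1B1 probe, above background on all 8 arrays, fell with a difference of -0.87 ± 0.26 (adjusted p = 0.0333). EDN1, the constrictor endothelin 1, differed by 0.20 ± 0.34 (adjusted p = 0.692) and its receptor EDNRA by -0.83 ± 0.87 (adjusted p = 0.502). The angiotensin receptors AGTR1 and AGTR2 differed by -0.46 ± 0.38 (adjusted p = 0.383) and -1.16 ± 0.55 (adjusted p = 0.143), and the neuropeptide Y receptor NPY1R by -0.08 ± 0.33 (adjusted p = 0.874).

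Of 7 measured genes of the contractile apparatus and cytoskeleton, 0 passed the limma test, and the list's differences ran from -0.81 to 0.07. At the share of all named genes, 53 higher and 40 lower of 759, so short a list may hold no call. The lowest was that of MYLK, the myosin light chain kinase of smooth muscle, at -0.81 ± 0.57 (adjusted p = 0.305), with levels of 5.96, 5.93, 6.30 and 6.92 near term and 5.22, 5.32, 6.06 and 5.27 in the newborn. MYLK, 1 of the 2 listed smooth muscle markers that were measured, was above background on all 8 arrays. The smooth muscle actin and myosin heavy chain genes, ACTA2 and MYH11, were not among the named probes.

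**Figure D2:**
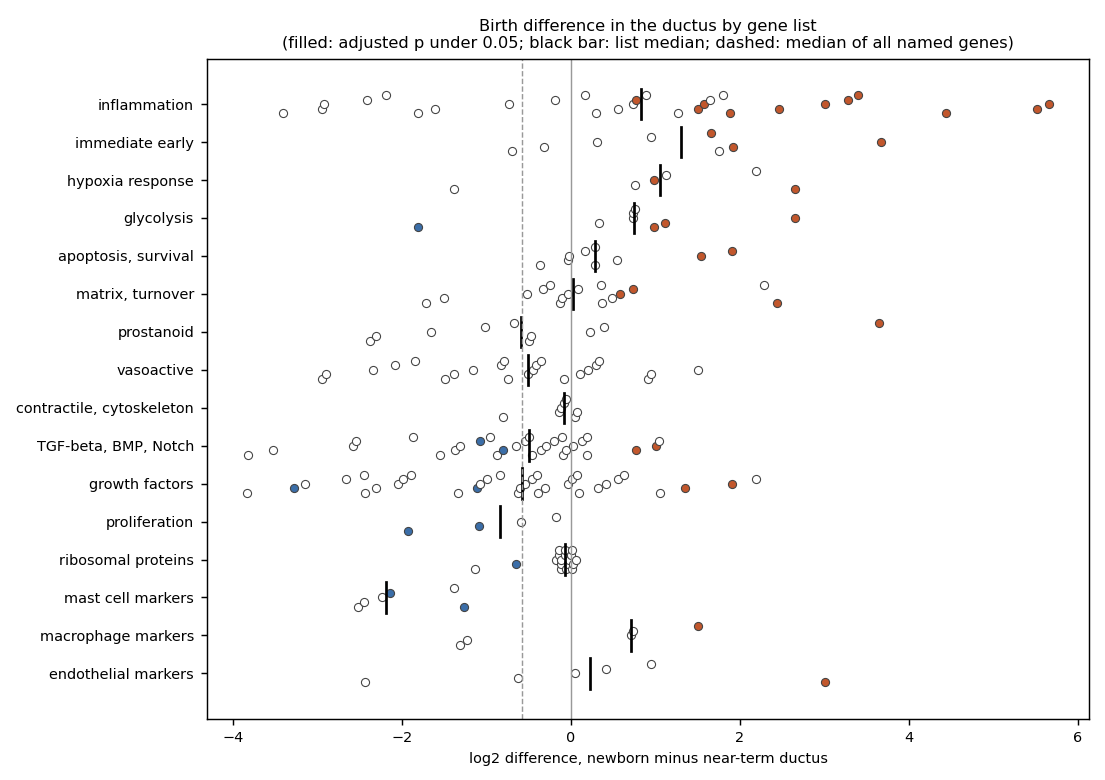
Log2 difference of the newborn from the near-term ductus for the measured genes of 16 lists, each point the brightest probe of a gene. Orange points rose and blue points fell with an adjusted p under 0.05, white points did not pass, black bars are list medians and the dashed line is the median of all 759 named genes, -0.58. Filled points are most numerous for inflammation, with 11 of 28, and absent for the vasoactive and contractile lists.

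Matrix genes showed 3 rises among 16 measured and 0 falls, where 4.16% of all probes and 53 of 759 named genes were higher. TIMP1, the inhibitor of matrix metalloproteinases, was bright near term at 4.59, 4.85, 4.64 and 5.11 and read 7.31, 7.04, 7.14 and 7.45 in the newborn. Both groups were tight, and the rise was 2.44 ± 0.20, or 5.43-fold (limma adjusted p = 1.84e-07). CTSB, the lysosomal protease cathepsin B, rose by 0.73 ± 0.18 (adjusted p = 0.0141), and HYAL2, which cuts hyaluronan, by 0.58 ± 0.17 (adjusted p = 0.0374), a call lost without near-term replicates 1 and 3. MMP1, interstitial collagenase, ranged from -7.19 to -2.50 near term and from -4.96 to -1.04 in the newborn, and its difference of 2.29 ± 1.44 did not pass (adjusted p = 0.248). ANXA2, which gathers plasminogen and its activator on cells, rose by 0.74 ± 0.16 (adjusted p = 0.00453), and missed the threshold without the 2 near-term arrays (adjusted p = 0.0594).

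In the TGF-beta, BMP and Notch families 2 of 29 measured genes rose and 2 fell. This is close to the 53 and 40 of 759 named genes, and to the 4.16% and 6.85% of all probes. TGFB1, the ligand that promotes matrix synthesis, rose by 1.00 ± 0.20, or 2.01-fold (limma adjusted p = 0.00234), and TGFBR2, its receptor, by 0.77 ± 0.22 (adjusted p = 0.0285). With normexp TGFBR2 differed by 0.21 (adjusted p = 0.541) and the call was lost. A second TGFBR2 probe, above background on 0 of 4 newborn arrays, differed by -0.13. INHBA, a subunit of activin A, fell from 4.79, 4.76, 4.54 and 4.98 near term to 3.87, 4.01, 4.04 and 3.93. The arrays did not overlap for INHBA, and the fall was 0.80 on the log2 scale, a difference of -0.80 ± 0.21 (adjusted p = 0.017). BMP6, a bone morphogenetic protein, differed by -1.07 ± 0.33 (adjusted p = 0.0398). Without near-term replicates 1 and 3 the adjusted p was 0.0589 for INHBA and 0.0958 for BMP6, and with normexp it was 0.0779 for INHBA.

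Of 34 measured growth factors and receptors, 2 rose and 2 fell. This is again close to the 53 and 40 of 759 named genes, and to the 4.16% and 6.85% of all probes. IGFBP3, the main carrier of insulin-like growth factors in plasma, read 0.47, 0.21, 0.43 and 1.02 near term and 2.66, 2.06, 2.69 and 2.34 in the newborn. The rise was 1.91 ± 0.33, or 3.76-fold (limma adjusted p = 0.000949). IGFBP2, a carrier of the same family, moved the other way, from 2.60, 2.98, 2.68 and 3.20 to 2.37, 1.35, 1.29 and 1.98. Its difference was -1.11 ± 0.26 (adjusted p = 0.00896). The IGFBP2 call was lost with median scaling, with low-limit arrays alone and in the fit on the compared groups alone. TNFRSF11B, or osteoprotegerin, the decoy receptor of RANK ligand, rose by 1.35 ± 0.26 (adjusted p = 0.00228).

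Proliferation genes measured here were few, and 2 of 4 fell, with 0 rises, where 6.85% of all probes and 40 of 759 named genes were lower. TYMS, which makes the thymidylate that DNA synthesis needs, read -0.61, -0.52, -0.04 and -0.09 near term and -1.82, -3.00, -2.86 and -1.30 in the newborn. The difference was -1.93 ± 0.38 (limma adjusted p = 0.00231), a call lost with low-limit arrays alone (adjusted p = 0.0925). PCNA, the sliding clamp of DNA polymerase, differed by -1.09 ± 0.28 (adjusted p = 0.0179), and by -1.17 without near-term replicates 1 and 3, where it missed the threshold (adjusted p = 0.0793). H2AZ1, a histone variant, differed by -0.59 ± 0.25 (adjusted p = 0.116).

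Named by the size of their change and outside that list were 2 genes of the mitotic spindle. HMMR, a spindle-associated hyaluronan receptor, read -1.53, -1.06, -1.10 and -1.13 near term and -3.05, -3.63, -3.78 and -2.88 in the newborn. The difference was -2.13 ± 0.28, a 4.38-fold fall (limma adjusted p = 5.9e-05). A second, dim HMMR probe was above background on 1 near-term and 0 newborn arrays. ASPM, a protein of the spindle pole, fell with a difference of -2.32 ± 0.52 (adjusted p = 0.0068), a call lost after quantile normalisation (adjusted p = 0.173). LMNB1, the nuclear lamin B1, differed by -1.9996 ± 0.54 (adjusted p = 0.0209), a call lost without near-term replicates 1 and 3 (adjusted p = 0.251).

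Both mast cell markers that passed the test were lower in the newborn. TPSB2, a tryptase that fills mast cell granules, read 3.62, 3.80, 3.65 and 4.11 near term and 2.02, 1.08, 1.96 and 1.52 in the newborn. The near-term arrays lay close together and the newborn arrays were all lower, for a difference of -2.15 ± 0.27, a 4.44-fold fall (limma adjusted p = 3.72e-05). FCER1A, the chain of the IgE receptor that binds IgE, differed by -1.27 ± 0.39 (adjusted p = 0.0403), with overlap between the ages. A second FCER1A probe did not pass (-1.01 ± 0.38, adjusted p = 0.0859). Of the 6 measured markers of mast cells and eosinophils 2 fell and 0 rose, where 40 of 759 named genes fell. Their summed level on the linear scale ran from 14.6 to 20.0 near term and from 2.58 to 5.50 in the newborn. Such a sum weights each probe by its brightness and is compared between arrays only. TPSB2 makes up most of it, so the sum largely repeats the fall of that 1 gene, which was named for its size.

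Markers of other cell types moved less evenly. Their counts are to be read beside the 53 higher and 40 lower of 759 named genes. Of 5 measured macrophage markers CD14 rose, while CYBB, a subunit of the phagocyte oxidase, differed by -1.23 ± 0.42 (limma adjusted p = 0.0653). A second CYBB probe, above background on 4 near-term arrays and 1 newborn array, was lower, with a difference of -1.80 ± 0.50 (adjusted p = 0.024). The summed macrophage signal was 0.82 to 1.21 near term and 1.43 to 1.87 in the newborn. Of 5 measured neutrophil markers 0 rose and 1 fell, the cathelicidin gene SC5, by a difference of -1.67 ± 0.45 (adjusted p = 0.0212), a call lost without near-term replicates 1 and 3. Neutrophil markers summed to 0.07 to 1.23 near term and 0.05 to 0.25 in the newborn. Their median difference was -1.24, but 0.77 without near-term replicates 1 and 3, so no direction is given for them as a group. None of 7 measured lymphocyte markers and none of 2 erythroid markers passed the same test. Among 6 endothelial markers SELP alone rose, and KDR, the main VEGF receptor, differed by -0.63 ± 0.25 (adjusted p = 0.104). Among 5 fibroblast markers the complement gene C3 alone rose, by 1.39 ± 0.39 (adjusted p = 0.0278), and among 5 adipocyte markers FABP4 alone. No platelet or nerve marker was measured. The part of cell numbers in the results above was not tested.

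APOA1, the main protein of high-density lipoprotein and a liver and plasma marker, read 1.11, 1.63, 1.17 and 0.59 near term. In the newborn it read 0.13, -0.81, -1.39 and -0.22, a difference of -1.70 ± 0.36 (limma adjusted p = 0.00447). The APOA1 call was lost with median scaling and with low-limit arrays alone (adjusted p = 0.0904 for the latter). MB, the myoglobin of heart and skeletal muscle, fell with a difference of -1.69 ± 0.40 (adjusted p = 0.00943), and was low on all 8 arrays. Its call was lost without near-term replicates 1 and 3 (adjusted p = 0.156).

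Further large rises were those of 3 genes outside the functional lists. SLC6A4, the serotonin transporter, read -3.13, -4.31, -3.31 and -4.55 near term and -2.52, -1.41, -1.24 and -0.54 in the newborn, a rise of 2.40 ± 0.59 (limma adjusted p = 0.0128). With normexp SLC6A4 differed by 0.74 and the call was lost (adjusted p = 0.205), and a second SLC6A4 probe missed the threshold at 2.35 ± 0.77 (adjusted p = 0.055). PDXK, which makes the active form of vitamin B6, rose by 2.33 ± 0.33, from between -2.83 and -2.58 to between -1.16 and 0.17 (adjusted p = 0.000133). FABP4, a fatty acid carrier of adipocytes, macrophages and some endothelium, rose by 2.19 ± 0.55 (adjusted p = 0.0149), and its call was lost without near-term replicates 1 and 3 (adjusted p = 0.0778). THRB, the beta receptor for thyroid hormone, rose by 1.03 ± 0.23 (adjusted p = 0.00665), a call lost with normexp (0.20, adjusted p = 0.621) and in the fit on the compared groups alone (adjusted p = 0.0751). PGR, the progesterone receptor, was above background on 4 near-term and 0 newborn arrays and at least 2.18-fold lower in the newborn (adjusted p = 0.0391). Without near-term replicates 1 and 3 PGR did not pass (adjusted p = 0.183). Each lower bound of this kind compares the group that had signal with the detection floors of the arrays that had none. The mineralocorticoid receptor NR3C2 differed by -1.65 ± 0.60 (adjusted p = 0.078).

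Among the 15 largest falls were 2 genes of small peptide hormones. PRLH, the precursor of prolactin-releasing peptide, read -1.55, -2.66, -1.09 and -1.93 near term and -3.73, -3.97, -4.33 and -5.15 in the newborn. It was above background on all 8 arrays, and the difference was -2.49 ± 0.39 (limma adjusted p = 0.000358). PMCH, the precursor of melanin-concentrating hormone, had a difference of -1.96 ± 0.30 (adjusted p = 0.000281), a call lost after quantile normalisation (adjusted p = 0.296). Both genes are best known from the hypothalamus.

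The remaining large falls were of dim probes. ANGPT1, the ligand of the endothelial receptor TIE2, read -1.93, -5.16, -2.58 and -5.56 near term and was below background on all newborn arrays, where it had only an upper bound (limma adjusted p = 0.0378). Its 2 high near-term values were those of replicates 1 and 3, and the difference shrank from -3.28 to -1.73 without them (adjusted p = 0.514). CLEC7A, a receptor for fungal beta-glucan, GRIA3, a glutamate receptor subunit, PRKAA2, a catalytic subunit of AMP-activated kinase, and ADIG, a small adipocyte protein, were likewise above background on 0 of 4 newborn arrays. None of these 4 passed without near-term replicates 1 and 3, and no fold is given for them. GSTA1, a glutathione transferase, went from -1.77 to -0.75 without them (adjusted p = 0.549).

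**Figure D3:**
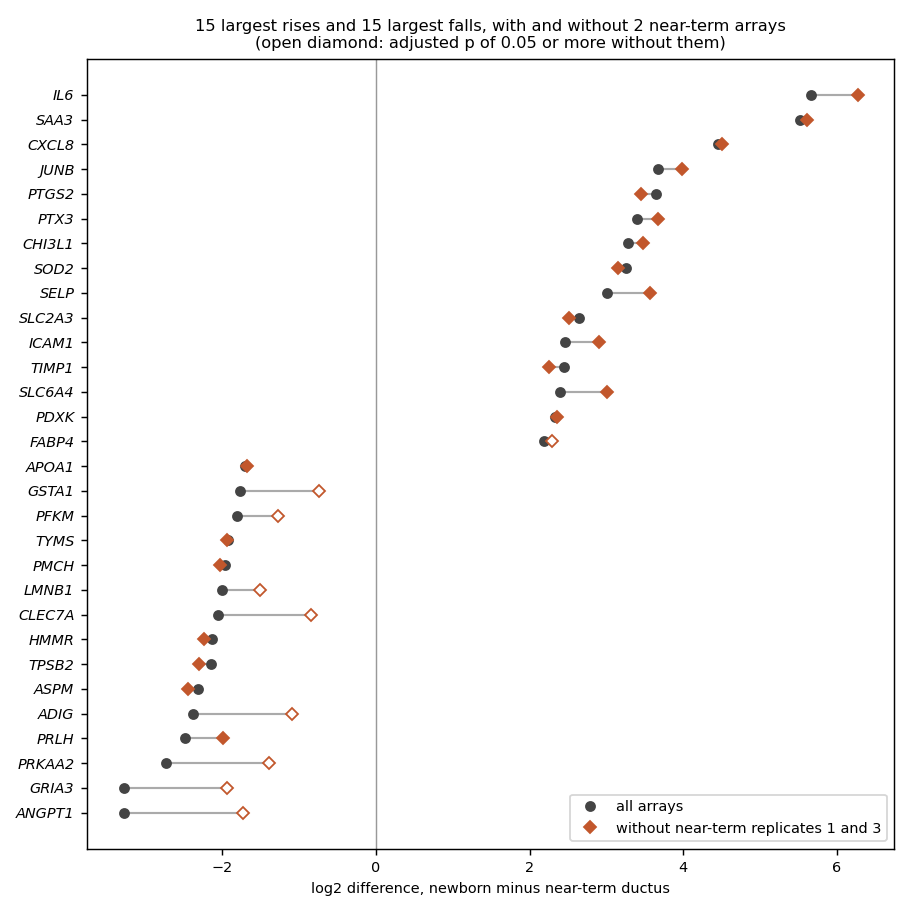
Log2 difference of the newborn from the near-term ductus for the 15 largest rises and 15 largest falls whose arrays did not overlap, with all arrays (grey circles) and without near-term replicates 1 and 3 (orange diamonds, open where the adjusted p was 0.05 or more). Of the rises only FABP4 is open, while ANGPT1, GRIA3, PRKAA2, ADIG, CLEC7A, LMNB1, PFKM and GSTA1 are open among the falls.

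Small calls were made in a few more lists, to be read beside the 53 higher and 40 lower of 759 named genes. HOXA7, a positional homeobox gene, differed by -0.86 ± 0.27 (limma adjusted p = 0.047), and SNAI2, a factor of mesenchymal transition, by -0.51 ± 0.20 (adjusted p = 0.103). IFNAR1, a subunit of the type I interferon receptor, rose by 0.79 ± 0.23 (adjusted p = 0.0325) as 1 of 10 measured genes of the interferon response. RPL32 was the 1 of 18 measured ribosomal protein genes that changed, with a difference of -0.65 ± 0.17 (adjusted p = 0.0205), and the median of the 18 was -0.07. Without near-term replicates 1 and 3 HOXA7, IFNAR1 and RPL32 did not pass.

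The 4 unnamed probes with the largest differences are given by the sequence accession printed on the array. EE798177 read -1.65, -1.97, -2.17 and -2.39 near term and 6.11, 5.19, 5.11 and 6.51 in the newborn, a rise of 7.775 ± 0.84 (limma adjusted p = 7.05e-06). EE866720 rose by 6.13 ± 0.75 (adjusted p = 3.06e-05). Both rises were larger than that of any named gene. EE769396 read 0.62, 0.23, -0.22 and -0.05 near term and was below background on all 4 newborn arrays, at least 57.6-fold lower (adjusted p = 0.0024). In the aorta it also differed, by -4.99 (adjusted p = 0.0356), and on 1 preterm ductus array it was at -7.685 while the other 3 read from -0.18 to 0.52. EE781219 read -1.77, -3.59, -2.17 and -4.29 near term and was below background on all 4 newborn arrays (limma adjusted p = 0.00511). Its 2 high near-term values were those of replicates 1 and 3, and no fold is given for it.

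The aorta next to the ductus gave the same comparison in a vessel that does not close. Its spike-in detection limits were 2.24, 2.43 and 1.93 on near-term replicates 2, 3 and 4. On newborn aorta replicates 3 and 4 they were 1.80 and 2.54, while no newborn ductus array was above 0.90. Ductus arrays lay in column 1 and aorta arrays in column 2 of each slide. The difference between the birth changes of the 2 vessels passed the limma test for 57 probes, 0.407% of those tested, of which 49 had the more positive change in the ductus (0.350%) and 8 in the aorta (0.0572%). Among named genes 10 had the more positive change in the ductus and 2 in the aorta. Of the 53 named genes that rose in the ductus, 12 rose in the aorta too and 10 differed between the vessels. The difference was 5.83 ± 0.75 for IL6, 3.78 ± 0.42 for SLC2A3 and 3.40 ± 0.43 for PTGS2, with adjusted p-values of 0.000411, 0.000245 and 0.000306.

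In the aorta IL6 differed over birth by -0.17 ± 0.53 (limma adjusted p = 0.874) and PTGS2 by 0.24 ± 0.30 (adjusted p = 0.664). SLC2A3 fell there, with a difference of -1.14 ± 0.30 (adjusted p = 0.0253). TIMP1 rose in both vessels, by 0.73 ± 0.20 in the aorta (adjusted p = 0.0315), and its rise was larger in the ductus by 1.71 ± 0.28 (adjusted p = 0.00429). CXCL8 also rose in both, by 3.00 ± 0.32 in the aorta (adjusted p = 8.23e-05), and the vessels were not shown to differ (1.45 ± 0.46, adjusted p = 0.288). For SAA3 the aortic difference was 1.35 ± 0.66 (adjusted p = 0.261), and the difference between vessels of 4.16 ± 0.93 just missed the threshold (adjusted p = 0.0536).

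Among the falls, PRLH differed between the vessels by -2.51 ± 0.55 (limma adjusted p = 0.047), with an aortic difference of 0.02. TPSB2 fell in the aorta too, by a difference of -1.26 ± 0.27 (adjusted p = 0.0086), and so did TYMS (-1.95), HMMR (-1.73), ASPM (-2.64) and PMCH (-1.98), with adjusted p-values from 0.000991 to 0.00513. None of these 5 was shown to differ between the vessels, with adjusted p-values from 0.548 for TPSB2 to 0.993 for TYMS and PMCH.

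**Figure D4:**
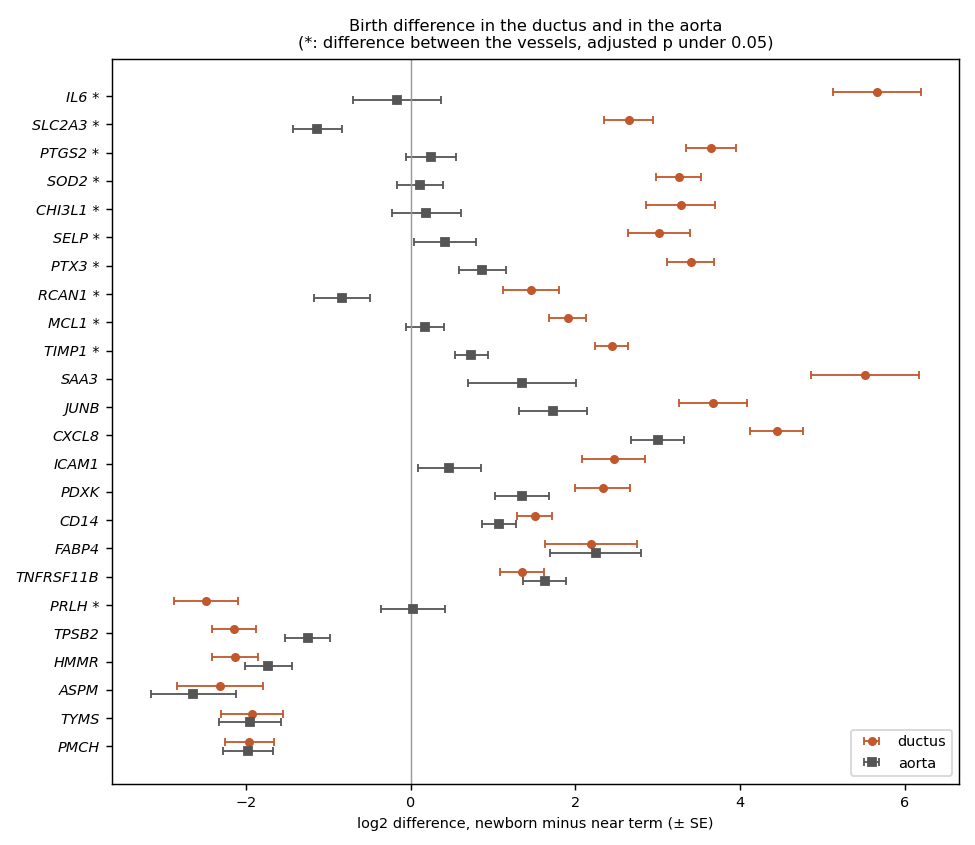
Log2 difference of newborn from near term with its SE for 24 genes, in the ductus (orange circles) and in the aorta (grey squares); asterisks mark genes whose change differed between the vessels with an adjusted p under 0.05. IL6, SLC2A3 and PTGS2 lie far apart in the 2 vessels, and TYMS, HMMR, ASPM and PMCH lie side by side.

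Set beside the preterm ductus, the newborn level of 6 genes with large birth changes stood apart from both fetal ages. Mean IL6 was -6.42 ± 1.13 (SD, n = 4) in the preterm ductus, -5.77 ± 0.80 near term and -0.10 ± 0.74 in the newborn. PTGS2 went from -1.87 ± 0.39 through -1.72 ± 0.35 to 1.92 ± 0.33, SLC2A3 from 2.80 ± 0.55 through 3.06 ± 0.43 to 5.70 ± 0.28, and TIMP1 from 4.77 ± 0.24 through 4.80 ± 0.24 to 7.24 ± 0.18. HMMR read -0.88 ± 0.29, -1.20 ± 0.22 and -3.34 ± 0.44, and TPSB2 3.29 ± 0.25, 3.80 ± 0.22 and 1.64 ± 0.44. For these 6 genes the near-term mean lay closer to the preterm mean than to the newborn one. They were picked for their large birth change, which favours this outcome. FABP4, another of the large rises, went from -5.16 ± 0.77 through -2.83 ± 0.21 to -0.64 ± 0.49, without that pattern. The step between the fetal ages was not tested here.

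**Figure D5:**
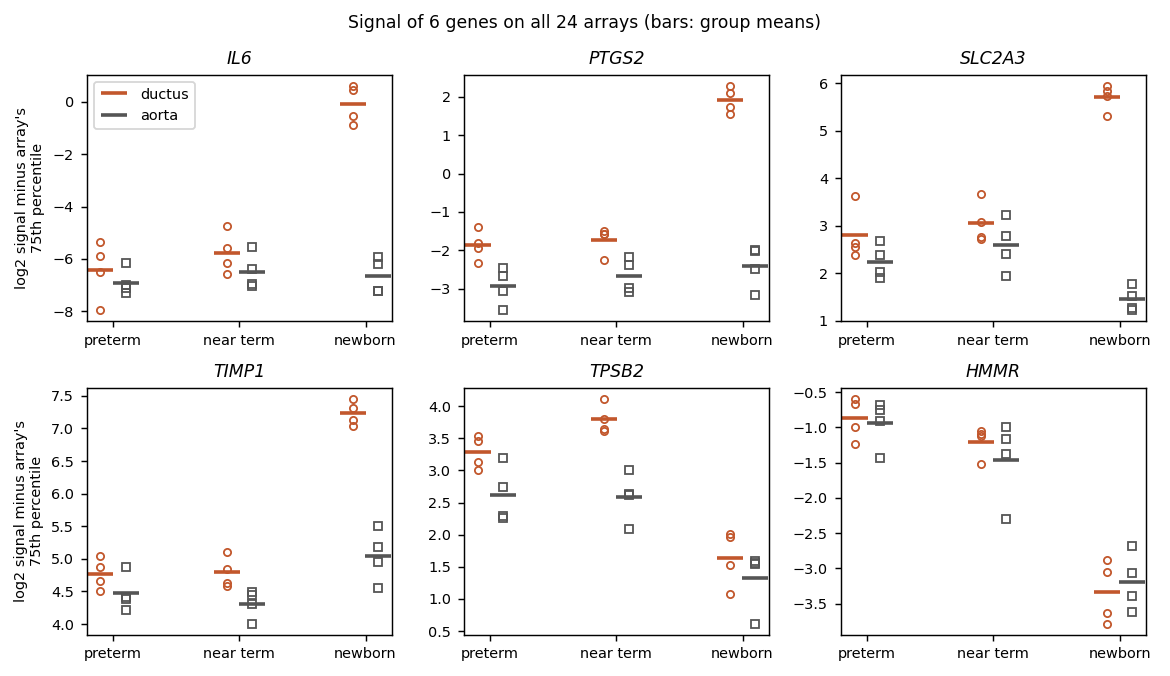
Level of 6 genes on all 24 arrays, in log2 signal minus the array's 75th percentile, at the 3 ages in the ductus (orange circles) and the aorta (grey squares), with group means as bars. The newborn ductus stands apart from the 5 other groups for IL6, PTGS2, SLC2A3 and TIMP1, while TPSB2 and HMMR are low in the newborn ductus and the newborn aorta alike.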

How the data were processed

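Scanner files of 24 single-colour Cy3 arrays (Agilent sheep design 019921) were used, 4 per vessel and age. Per the file headers, the deposited spot intensities came from Agilent Feature Extraction 9.5.3.1, whose processed signal is background-subtracted and detrended. Log2 processed signals were centred on each array's 75th percentile, control and outlier-marked spots left out, and spots of a probe averaged. Probes well above background on at least 4 of 24 arrays were fitted with limma 3.58.1 in R 4.3.3 as 6 group means, with Benjamini-Hochberg adjustment over all 13997 probes. Symbols came from the array annotation, a RefSeq table (assembly ARS-UI_Ramb_v3.0) or, for 297 probes, by hand from the array's descriptions. Of 15008 probes 1422 had a symbol. The fit was tested on simulated data.

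Genes named are the 15 largest rises and falls among called, non-overlapping genes, up to 6 members of each list with the smallest p, and a panel of vascular genes; some of them are not reported here. Members and lists were chosen with earlier results of these data known. The number of arrays limits the precision. No sequence is printed. Alternatives were normexp, quantile and median scaling, 2 other filters, arrays left out, a replicate block, array weights, the spike-in limit as a term, outlier spots kept and the mean over probes.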

Additional observations from a re-analysis of the deposited data

Results flagged for a closer look

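For 11 genes of the report the change over birth differed between the ductus and the aorta (limma interaction, adjusted p under 0.05). The change was the more positive in the ductus, on the log2 scale, by 5.83 for IL6, 3.78 for SLC2A3, 3.40 for PTGS2, 3.14 for SOD2, 3.09 for CHI3L1, 2.59 for SELP, 2.54 for PTX3, 2.29 for RCAN1, 1.73 for MCL1 and 1.71 for TIMP1. PRLH had the opposite sign, at -2.51.

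In 12 cases 1 array lay far from the other 3 of its group. Chance alone marks about 1 group in 20, and 184 groups of arrays were looked at. Newborn replicate 2 was low for SELP at -1.97, against -0.12 to -0.11 on the other newborn arrays, for IL1B at -2.40 against -0.95 to -0.66, and for FCER1A at -1.16 against 0.36 to 0.63. The same array was high for TGFBR2 at -1.11. Newborn replicate 3 was high for JUN at 1.78 and for MYLK at 6.06, newborn replicate 1 was high for TNFRSF11B at 2.08, and newborn replicate 4 was low for CLEC7A at -6.37, where the signal was below background. Near term, replicate 3 was low for PTGS2 at -2.25 and high for TNFRSF11B at 1.25, replicate 1 was low for HMMR at -1.53, and replicate 2 was low for SLC2A1 at -1.53.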

How the results depend on the processing

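The main analysis called 1541 probes and 93 named genes in the ductus, and 57 probes for the difference between the vessels. The ductus count was 5468 with normexp, 1012 with median centring, 902 with the fit on the groups compared alone, 7691 with array weights, 615 with low-limit arrays alone and 634 without near-term ductus replicates 1 and 3, an alternative chosen after seeing the data. Named genes called numbered 395 with normexp, 490 with array weights, 51 with low-limit arrays and 50 without those 2 arrays. The difference between the vessels was called for 33 probes with median centring, 273 with array weights and 141 with low-limit arrays. Leaving out 1 array gave 928 to 2274 ductus probes, 63 to 157 named genes and 39 to 63 probes for the difference between vessels. With near-term replicate 1 left out the ductus count was 941, with near-term replicate 3 it was 928, and with newborn replicate 1 it was 944. The 157 named genes were those called without near-term replicate 4. The cause was not tested.

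Deviations of same-numbered newborn and near-term ductus arrays correlated at 0.0559, 0.065, 0.0621 and 0.14. Newborns and fetuses are different animals, so these values cannot show pairing by animal. Whether same-numbered ductus and aorta arrays of an age came from 1 animal was not tested. With the replicate number as a block 1559 ductus probes, 96 named genes and 56 probes for the difference between vessels were called.

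Of 63 called genes described, 21 kept their call under every alternative and every array left out, among them IL6, SAA3, CXCL8, JUNB, SLC2A3, TIMP1 and TPSB2. Direction turned for 8 genes. With normexp IL10 was at -0.11, IL1A at -0.0027, HIF1A at -0.36 and EDN1 at -0.25. With array weights IL1A was at -0.0802, EDN1 at -0.033 and AGTR1 at 0.35. EDNRA was at 0.22 with the spike-in limit as a term and 0.73 both with low-limit arrays and without near-term replicates 1 and 3. NPY1R was at 1.05 with quantile normalisation, 0.23 with median centring, 0.0604 with the spike-in limit as a term, 0.57 with low-limit arrays and without the 2 near-term arrays, and 0.11 as the mean over its probes. CREM was at -0.71 as the mean over its probes. With 1 array left out EDN1 ranged from -0.0031 to 0.34 and NPY1R from -0.38 to 0.21. With normexp the folds shrank to 5.59 for PTX3, 2.67 for PDXK and 3.18 for PRLH, with the calls kept. Of the 8 genes that turned, IL10 and CREM were called in the main analysis. Signal near background limits what can be said of dim genes. The planned promoter search was not run.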
